A study of Homo sapiens with 17 samples.

Results

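The RNA of 10 amino acid transporter genes was followed in L363, an established human multiple myeloma cell line, after 48 h of drug treatment. They are SLC7A5, SLC3A2, SLC7A11, SLC1A4, SLC1A5, SLC38A1, SLC38A2, SLC7A1, SLC6A9 and SLC43A1, chosen by name as transporters known to be under control of the kinase mTOR, and all 10 were among the 19775 genes measured. Earlier results of these data were known when they were chosen. A member was represented by the probe set (a group of short array oligonucleotides for 1 transcript) annotated to it alone that had the highest mean signal over the 17 arrays. Total RNA was hybridised to oligonucleotide arrays, and every value below is a log2 signal per probe set as the authors deposited it, or a difference between such values.

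The cells received 0.5 uM MS275 (MS-275, an inhibitor of histone deacetylases) on 3 arrays, 1 nM rapamycin (an mTOR inhibitor) on 3 arrays, or 10 nM rapamycin on 3 arrays. On 3 further arrays they received 1 nM rapamycin together with 0.5 uM MS275, called the 1 nM combination, and on 2 arrays 10 nM rapamycin together with 0.5 uM MS275, called the 10 nM combination. Untreated control cells filled the remaining 3 arrays. The series' design text gives 3 replicates per group and says that 1 array failed quality control, and the 10 nM combination is the group with 2. All groups are the same single cell line, and nothing in the labels tells separate cultures from repeat measurements among the replicates. The p-values therefore measure only the spread between these samples, which may be technical.

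Amino acid transporters of the plasma membrane supply the building blocks of protein synthesis, a heavy demand in antibody-secreting plasma cells and in the myelomas that arise from them. Leucine and arginine that enter the cell activate the kinase complex mTORC1 at the lysosome. Active mTORC1 in turn raises the output of the transcription factor ATF4, which binds amino acid response elements in the promoters of transporter and amino acid synthesis genes.

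The promoter stretches below are shown because this element is a known link from mTORC1 to transporter genes. Its part in the changes reported here was not tested. RefSeq promoter windows (GRCh38.p14, 250 bases before to 50 after a gene start) were found for 9 of the 10 members, in 16 windows; SLC7A11 had no entry. They were searched on both strands for the response element core TGATGNAA, which reads TTNCATCA on the other strand. It was found in 5 of the 9 members and in 5 of their 16 windows, against 4.46% of the 27305 genes and 3.62% of the 35116 windows in the table. The members were chosen as transporters under mTOR control, so this count is not an independent test. Capitals mark the match, and each stretch reads 5′ to 3′ on the gene's own strand:
SLC3A2: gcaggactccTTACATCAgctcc
SLC1A4: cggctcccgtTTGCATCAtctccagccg
SLC1A5: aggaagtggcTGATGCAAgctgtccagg
SLC38A1: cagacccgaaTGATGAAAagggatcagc
SLC7A1: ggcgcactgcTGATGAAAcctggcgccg
In GRCh38.p14 these lie at chr11:62881726-62881748 on the plus strand, chr2:64989382-64989409 on the plus strand and chr19:46784894-46784921 on the minus strand. The SLC38A1 and SLC7A1 stretches lie at chr12:46266503-46266530 and chr13:29595664-29595691, both on the minus strand. Relative to the start of its window's transcript, the match began 37 bases after it in SLC3A2, 7 before in SLC1A4, 97 before in SLC1A5, 4 before in SLC38A1 and 7 after in SLC7A1. SLC7A5 held no such core in its window but did hold the palindromic E-box CACGTG, the letters that MYC and related factors bind, at 130 bases before its start (chr16:87869622-87869647, minus strand):
SLC7A5: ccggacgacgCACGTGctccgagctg
The E-box was found in 3 of the 9 members (also SLC1A5 and SLC43A1) and in 8.77% of all genes of the table. The antioxidant response element core TGACNNNGC, searched in the same way, was in 4 of the 9 (SLC7A5, SLC3A2, SLC1A5 and SLC7A1) and in 16.1% of all genes. None of these matches overlap. Such a match describes letters only, and it does not show that a factor binds there.

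Median log2 signals of the 17 arrays lay between 5.09 and 5.36. Replicate 1 of the 1 nM combination and replicate 1 of the control had a narrower range of values: the SD of the whole table was 2.15 and 2.14 on them, and 2.27 to 2.37 elsewhere. The 10 plasma cell markers all had mean log2 signals of at least 5, from 8.09 to 12.59 with a median of 11.73, while the medians of the T cell, myeloid, fibroblast and epithelial markers were 4.51, 4.79, 4.78 and 5.48. No marker can be called absent, since no detection calls were used. Of the 10 plasma cell markers, CD38 fell with both rapamycin doses and in both combinations (changes of -1.5, -1.36, -0.90 and -1.33), and SDC1 in the 10 nM combination (-1.45). Their summed signal was 14.67 to 15.15 with MS275, 14.76 to 15.20 in the combinations and 15.03 to 15.45 with rapamycin, against 15.04 to 15.32 in control cells. Of 4 myeloid markers, CSF1R rose by 0.995 with MS275 and by 0.91 in the 1 nM combination. Their summed signal was 6.90 to 7.21 with MS275 and 6.87 to 7.22 in the 1 nM combination, against 6.65 to 7.35 in control cells. The part of these shifts in the transporter results was not tested, and in bulk RNA fewer cells of a type and less RNA per cell cannot be told apart. A mean log2 signal of at least 5 was reached by 9 members, as did 65.5% of all genes. SLC6A9 averaged 3.57. Signals of different probe sets are not on a common scale, so no member's level is set against another's.

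Against control cells, 2 of the 10 members fell with MS275, 3 with 1 nM rapamycin, 4 with 10 nM rapamycin, and 6 under each combination. None rose in any of these 5 comparisons, and SLC7A5 and SLC3A2 fell in all 5. A member is said to have changed where limma, a linear model fitted over all genes and arrays, gave a Benjamini-Hochberg adjusted p under 0.05. Of all genes, 0.455% passed as lower with MS275, 0.0809% and 0.369% with rapamycin at 1 and 10 nM, 1.58% under the 1 nM combination and 2.24% under the 10 nM combination. At an unadjusted p under 0.05, 7, 9, 8, 9 and 9 members were lower in the same order. Of the 19775 genes, 2130, 1592, 1376, 2495 and 2804 had such a p in either direction. The median member change was -0.85, -1.39, -1.18, -1.45 and -1.42 on the log2 scale, beside all-gene medians of -0.05, -0.12, -0.07, 0.02 and -0.08. Every array lay below every control array for 5 members with MS275, beside 5.34% of all genes. The same held for 7 members with 1 nM rapamycin (8.03% of all genes), 7 with 10 nM rapamycin (4.93%), 8 with the 1 nM combination (5.61%) and 7 with the 10 nM combination (13.0%). These 5 comparisons share their control arrays. Because the members were chosen with earlier results of these data known, their counts beside the all-gene shares are not an independent test.

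**Figure D1:**
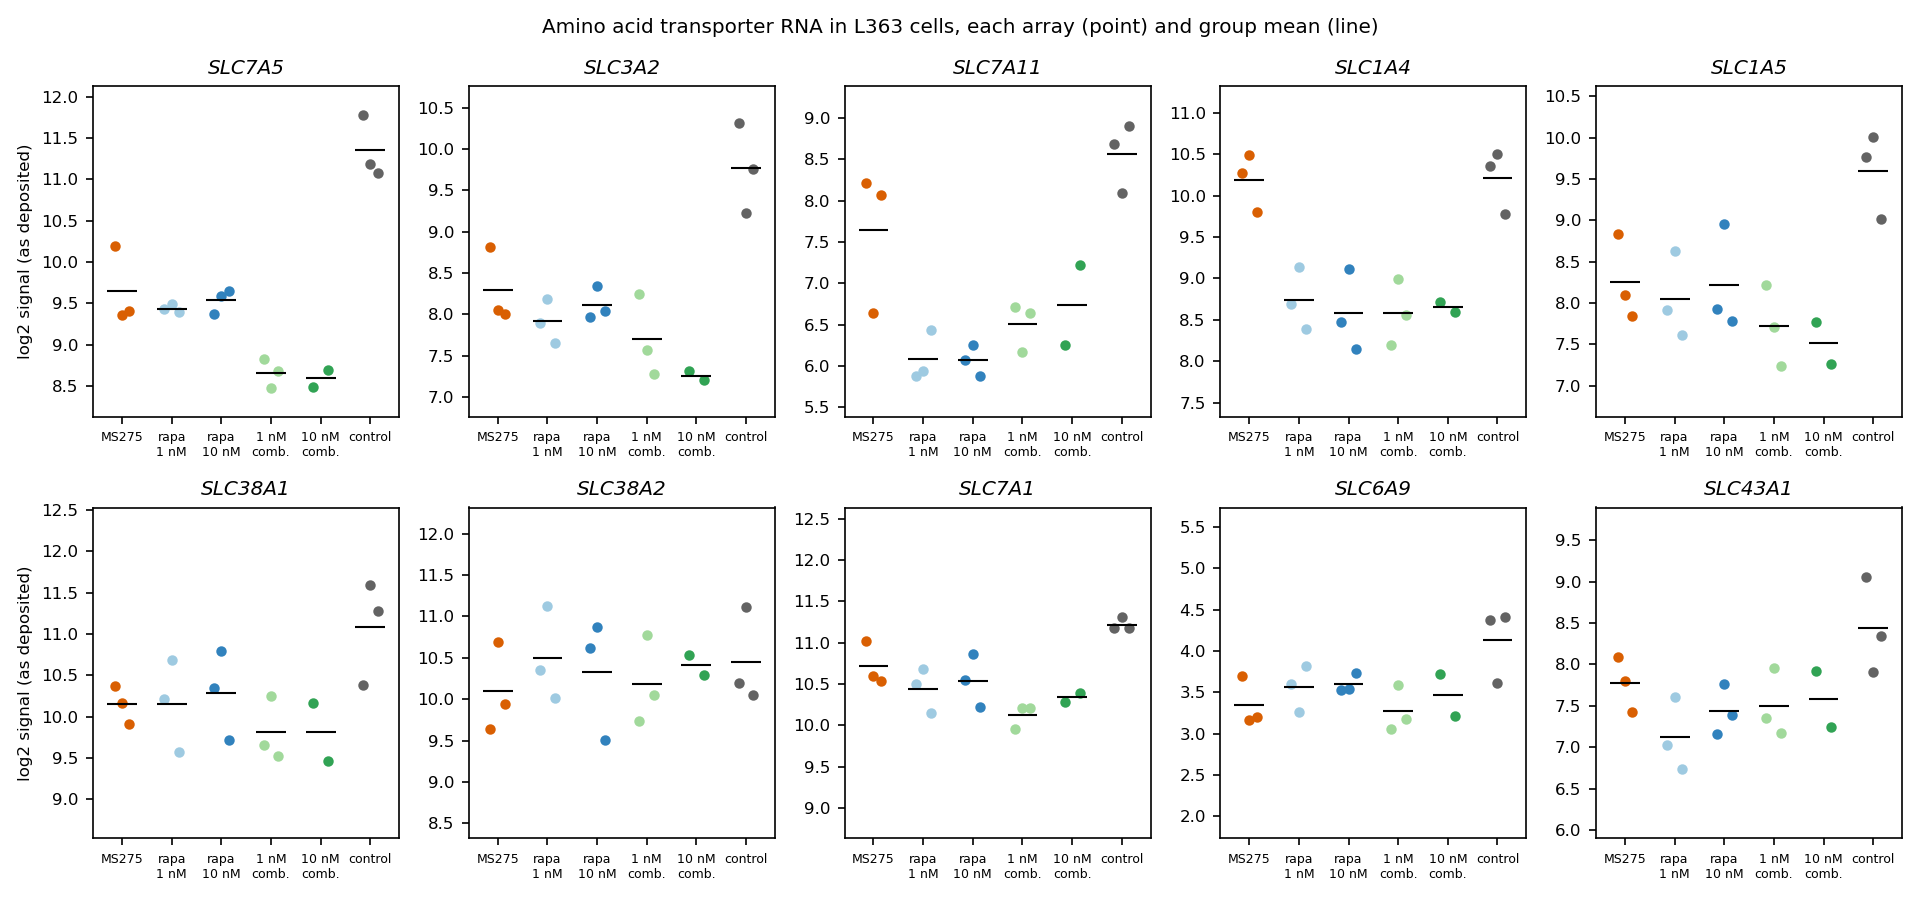
Log2 signal (vertical axis, as deposited) of each of the 10 transporter genes, 1 panel per gene, by treatment group with control at the right. Points are single arrays and lines are group means; all panels span the same number of log2 units, and the control arrays of SLC7A5, at 11.08 to 11.78, stand above every treated array, of which the highest is 10.19.

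SLC7A5 and SLC3A2 encode the light and heavy chain of LAT1, which imports leucine and other large neutral amino acids. SLC7A5 had log2 signals of 10.19, 9.36 and 9.41 with MS275, 9.43, 9.49 and 9.39 with 1 nM rapamycin and 9.37, 9.59 and 9.65 with 10 nM rapamycin. It had 8.82, 8.48 and 8.68 in the 1 nM combination and 8.49 and 8.69 in the 10 nM combination, against 11.78, 11.19 and 11.08 in control cells. The 14 treated arrays all lay below the control arrays, and the 5 combination arrays all lay below the 9 arrays of the single drugs. SLC7A5 fell under each single drug, with log2 changes of -1.70 ± 0.23 (SE) for MS275, -1.91 ± 0.23 for 1 nM and -1.81 ± 0.23 for 10 nM rapamycin, which are 3.24-, 3.77- and 3.51-fold lower signals (limma adjusted p = 0.00186, 0.0127 and 0.00892). Its changes in the combinations were -2.69 ± 0.23 at 1 nM and -2.76 ± 0.26 at 10 nM, or 6.45- and 6.76-fold lower (adjusted p = 7.9e-05 and 0.000104).

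The heavy chain gene SLC3A2, which also pairs with SLC7A11, had 8.82, 8.05 and 8.0 with MS275, 7.90, 8.19 and 7.66 with 1 nM rapamycin and 7.97, 8.35 and 8.04 with 10 nM rapamycin. It had 8.25, 7.56 and 7.28 in the 1 nM combination and 7.31 and 7.21 in the 10 nM combination, against 10.31, 9.22 and 9.76 in control cells. No treated array reached the lowest control array. SLC3A2 fell under each single drug as well, with log2 changes of -1.48 for MS275, -1.85 for 1 nM and -1.65 for 10 nM rapamycin (SE 0.31 each, limma adjusted p = 0.0265, 0.0348 and 0.0363). In the combinations its changes were -2.07 ± 0.31 at 1 nM and -2.50 ± 0.34 at 10 nM (adjusted p = 0.00208 and 0.00109).

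The calls of this pair differed in how often leaving out an array ended them. Those of SLC7A5 with MS275 and of both genes in both combinations held with each of the 17 arrays left out in turn. The SLC7A5 call was lost at 1 nM rapamycin without replicate 1 or 3 of that group (highest limma adjusted p 0.113) and at 10 nM without its replicate 1 (0.0782). In these fits 0% of all genes passed as lower at 1 nM and 0.0101% at 10 nM. With each array left out, the SLC7A5 change stayed between -2.05 and -1.70 at 1 nM and between -1.95 and -1.60 at 10 nM. For SLC3A2 under MS275, leaving out replicate 2 or 3 of that group or replicate 1 or 3 of the control ended the call (highest adjusted p 0.134). Its rapamycin calls were lost with 11 of 17 arrays left out at 1 nM and 12 of 17 at 10 nM (highest adjusted p 0.221 and 0.219), among them control replicates 1 and 3 and each array of the rapamycin group concerned.

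SLC7A11, the xCT light chain that pairs with SLC3A2 and imports cystine in exchange for glutamate, had the lowest means of its representative with rapamycin alone. Its log2 signals were 8.22, 6.64 and 8.07 with MS275, 5.87, 5.94 and 6.44 with 1 nM rapamycin and 6.07, 6.26 and 5.88 with 10 nM rapamycin. They were 6.72, 6.17 and 6.64 in the 1 nM combination and 6.26 and 7.22 in the 10 nM combination, against 8.68, 8.10 and 8.90 in control cells. The MS275 array at 8.22 lay within the control range and that at 6.64 lay among the combination arrays, so the MS275 group spread over 0.87 (SD, n = 3). SLC7A11 fell with rapamycin, by log2 changes of -2.47 ± 0.38 at 1 nM and -2.49 ± 0.38 at 10 nM, or 5.56- and 5.61-fold lower (limma adjusted p = 0.0284 and 0.0130). In the combinations its changes were -2.05 ± 0.38 at 1 nM and -1.82 ± 0.42 at 10 nM (adjusted p = 0.00785 and 0.0289), and the change of -0.92 ± 0.38 with MS275 did not pass (adjusted p = 0.358). The 1 nM combination call held with each array left out. The 1 nM rapamycin call was lost when any array of its own group, or control replicate 1 or 3, was left out (highest adjusted p 0.132), and the 10 nM call without control replicate 3 or 10 nM rapamycin replicate 1 or 3 (0.0876). In the 10 nM combination it was lost when either of its own arrays, or control replicate 1 or 3, was left out (0.287). Without both narrow arrays the 1 nM rapamycin and 10 nM combination calls were lost (adjusted p = 0.0543 and 0.0658).

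SLC1A4 and SLC1A5 encode the sodium-dependent exchangers ASCT1, which carries alanine, serine and cysteine, and ASCT2, the exchanger best known for glutamine. SLC1A4 had 10.27, 10.49 and 9.80 with MS275, 8.69, 9.14 and 8.38 with 1 nM rapamycin and 8.48, 9.11 and 8.15 with 10 nM rapamycin. It had 8.20, 9.0 and 8.56 in the 1 nM combination and 8.71 and 8.59 in the 10 nM combination, against 10.36, 10.50 and 9.78 in control cells. The 3 MS275 arrays lay inside the control range, and all 11 arrays that received rapamycin lay below the arrays of both groups. SLC1A4 fell with 10 nM rapamycin (-1.63 ± 0.30, limma adjusted p = 0.0353) and in both combinations, with changes of -1.63 ± 0.30 at 1 nM and -1.56 ± 0.33 at 10 nM (adjusted p = 0.00783 and 0.0202). Its change was -1.47 ± 0.30 with 1 nM rapamycin (adjusted p = 0.0825, and 0.00936 with the replicate number as a block) and -0.02 ± 0.30 with MS275 (adjusted p = 0.989, 95% confidence interval -0.66 to 0.62). The 10 nM rapamycin call was lost with 9 of 17 arrays left out, each control array among them (highest adjusted p 0.207). Without both narrow arrays the 10 nM rapamycin and 1 nM combination calls were lost (0.0561 and 0.0662). The 10 nM combination call was lost without control replicate 2 or either of its own arrays (0.160).

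For SLC1A5 the log2 signals were 8.83, 8.10 and 7.84 with MS275, 7.91, 8.63 and 7.61 with 1 nM rapamycin and 7.93, 8.96 and 7.78 with 10 nM rapamycin. They were 8.21, 7.70 and 7.24 in the 1 nM combination and 7.76 and 7.26 in the 10 nM combination, against 9.76, 10.01 and 9.01 in control cells. All treated arrays lay below the control arrays, the nearest (8.96) by a narrow margin. SLC1A5 fell in both combinations, with changes of -1.88 ± 0.39 at 1 nM and -2.08 ± 0.44 at 10 nM (limma adjusted p = 0.0173 and 0.0186). The changes of -1.34 ± 0.39 with MS275, -1.54 ± 0.39 with 1 nM rapamycin and -1.37 ± 0.39 with 10 nM rapamycin did not pass (adjusted p = 0.129, 0.179 and 0.216). With the replicate number as a block, adjusted p was 0.0239 with MS275 and 0.0387 with 1 nM rapamycin. The 1 nM combination call was lost without control replicate 2 or 1 nM combination replicate 2 or 3 (highest adjusted p 0.0825), and the 10 nM combination call without either of its own arrays (0.186).

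SLC7A1, or CAT1, imports arginine and lysine, and its control arrays were close together. It had log2 signals of 11.02, 10.60 and 10.54 with MS275, 10.50, 10.67 and 10.14 with 1 nM rapamycin and 10.54, 10.86 and 10.22 with 10 nM rapamycin. It had 9.96, 10.21 and 10.20 in the 1 nM combination and 10.28 and 10.39 in the 10 nM combination, against 11.17, 11.31 and 11.17 in control cells. Every treated array was below the control arrays, whose SD was 0.078 (n = 3). SLC7A1 fell in both combinations, with changes of -1.09 ± 0.20 at 1 nM and -0.88 ± 0.22 at 10 nM (limma adjusted p = 0.00688 and 0.0412). Its changes of -0.50, -0.78 and -0.68 (SE 0.20 each) with MS275, 1 nM and 10 nM rapamycin did not pass (adjusted p = 0.324, 0.175 and 0.223). The first of these calls held with each array left out; the second was lost with 11 of 17 left out, each control array among them (highest adjusted p 0.224).

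The representatives of the other 4 members passed in none of the comparisons with control. SLC38A1, the sodium-coupled neutral amino acid transporter SNAT1, had 10.38, 10.17 and 9.91 with MS275, 10.21, 10.68 and 9.58 with 1 nM rapamycin and 10.34, 10.79 and 9.72 with 10 nM rapamycin. It had 9.66, 10.25 and 9.53 in the 1 nM combination and 10.16 and 9.46 in the 10 nM combination, against 10.38, 11.60 and 11.27 in control cells. Control replicate 1, the array with the narrow range of values, thus lay among the treated ones. The changes were -0.93 and -0.93 with MS275 and 1 nM rapamycin and -0.80 with 10 nM rapamycin (SE 0.37 each), with limma adjusted p from 0.329 to 0.712. Both combinations gave -1.27 (SE 0.37 at 1 nM and 0.41 at 10 nM, adjusted p = 0.0932 and 0.131). Without control replicate 1 both combination changes were -1.62 and passed (adjusted p = 0.0247 and 0.0440), and with the replicate block the 1 nM combination passed (adjusted p = 0.0353).

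SLC38A2, or SNAT2, a related transporter induced by amino acid shortage, had 9.64, 10.69 and 9.95 with MS275, 10.35, 11.13 and 10.02 with 1 nM rapamycin and 10.62, 10.88 and 9.50 with 10 nM rapamycin. It had 9.73, 10.77 and 10.05 in the 1 nM combination and 10.54 and 10.29 in the 10 nM combination, against 10.20, 11.11 and 10.05 in control cells. The groups overlapped throughout. Its changes ran from -0.36 to 0.05 with limma adjusted p of 0.866 to 0.984, and the 95% confidence interval reached from -1.27 to 0.55 with MS275 and from -0.86 to 0.95 with 1 nM rapamycin.

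SLC43A1, the heavy-chain-independent large neutral amino acid transporter LAT3, had 8.10, 7.80 and 7.42 with MS275, 7.02, 7.60 and 6.74 with 1 nM rapamycin and 7.16, 7.77 and 7.39 with 10 nM rapamycin. It had 7.35, 7.95 and 7.17 in the 1 nM combination and 7.92 and 7.24 in the 10 nM combination, against 9.06, 7.91 and 8.34 in control cells. Only with rapamycin alone did every array lie below the control arrays. The change was -1.31 ± 0.33 at 1 nM rapamycin and between -0.997 and -0.66 in the other comparisons (limma adjusted p of 0.172 to 0.512). SLC6A9, the glycine transporter GLYT1, was dim, with 3.06 to 3.82 on the treated arrays against 4.37, 3.61 and 4.41 in control cells. Its changes of -0.86 to -0.53 did not pass (adjusted p of 0.0920 to 0.721), though it passed in the 1 nM combination without control replicate 2 (-1.12, adjusted p = 0.0294).

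**Figure D2:**
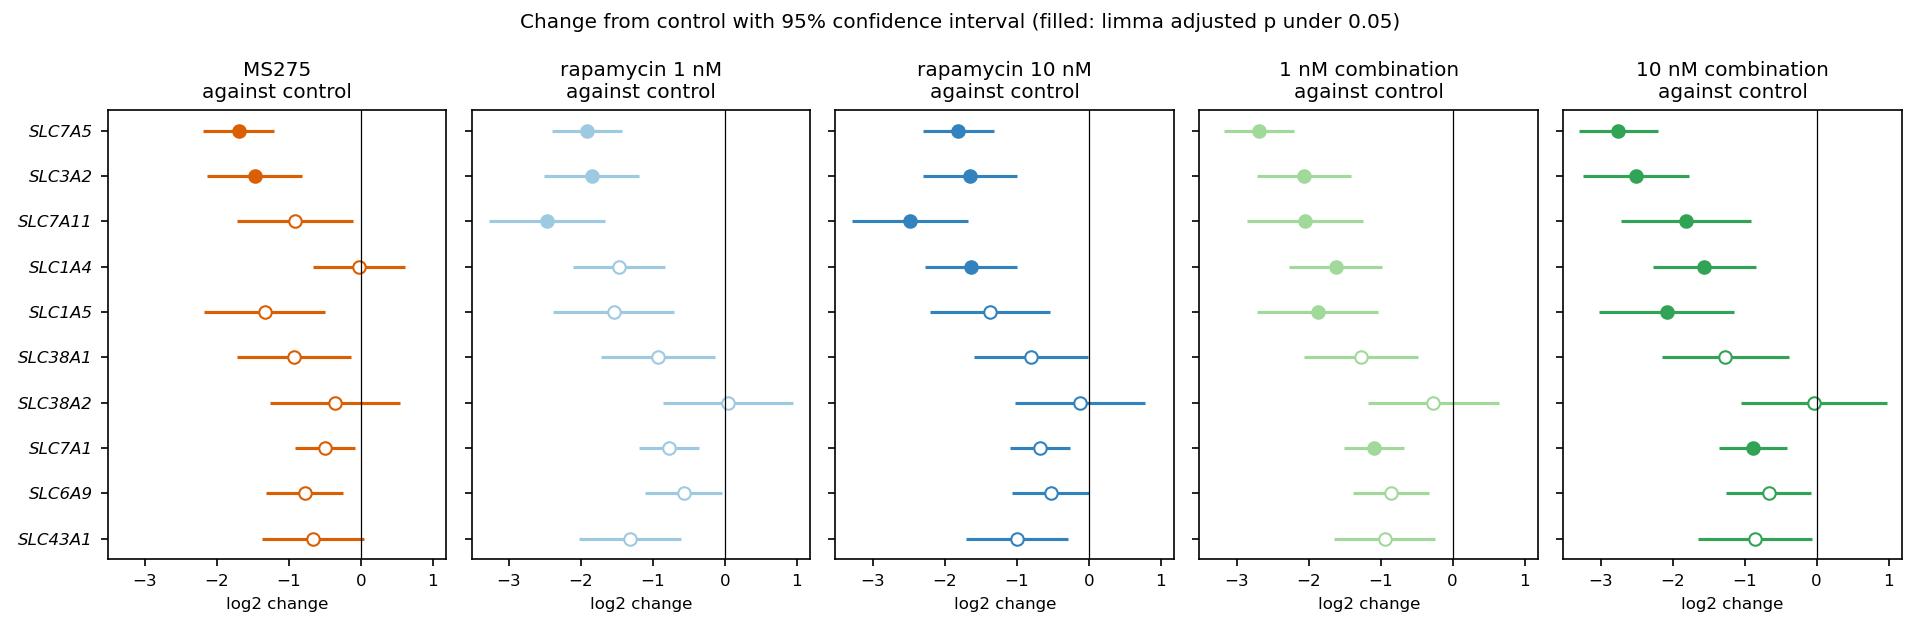
Log2 change from control (horizontal axis) for each member, 1 panel per treatment; points are limma estimates, bars are 95% confidence intervals and filled points have an adjusted p under 0.05. SLC7A5 and SLC3A2 are filled in all 5 panels, SLC1A4 sits at -0.02 with MS275 and between -1.63 and -1.47 in the other 4 panels, and SLC38A2 crosses 0 throughout.

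RNA of SLC1A4 and SLC7A11 stood higher with MS275 than with rapamycin, with the less stable calls in SLC7A11. This comparison was listed after its values were seen, so its p-values are not an independent test. The MS275 signals of SLC1A4 averaged 10.19 ± 0.35 (SD, n = 3), against 8.74 ± 0.38 with 1 nM and 8.58 ± 0.49 with 10 nM rapamycin (n = 3 each). That is a log2 difference of 1.45 ± 0.30 (SE) from 1 nM and of 1.61 ± 0.30 from 10 nM rapamycin (limma adjusted p = 0.0197 and 0.0104). SLC7A11 averaged 7.64 ± 0.87 with MS275, against 6.09 ± 0.31 and 6.07 ± 0.19 with 1 and 10 nM rapamycin. The differences were 1.56 ± 0.38 and 1.57 ± 0.38 (adjusted p = 0.0463 and 0.0436). For both genes every MS275 array lay above every array of either rapamycin group. The same held for 3062 of the 19775 genes against 1 nM rapamycin and for 1959 against 10 nM. SLC1A4 and SLC7A11 were the 2 of 10 members that passed in each comparison. Of all genes, 1.80% passed as higher with MS275 than with 1 nM rapamycin and 1.79% than with 10 nM.

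The other 8 members passed in neither comparison, with differences between -0.41 and 0.65 that overlapped 0. For SLC7A5 the difference between MS275 and rapamycin was 0.22 (95% confidence interval -0.27 to 0.71) at 1 nM and 0.12 (-0.37 to 0.61) at 10 nM. Both comparisons use the same MS275 arrays. The SLC1A4 call was lost at 1 nM without MS275 replicate 1 or 2 or 1 nM rapamycin replicate 1 or 3 (highest adjusted p 0.106), and at 10 nM without 10 nM rapamycin replicate 1 or 3 (0.0546). The SLC7A11 calls were lost with 12 of 17 arrays left out in each comparison (highest adjusted p 0.220 and 0.197), and at 1 nM also without both narrow arrays (0.0503).

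**Figure D3:**
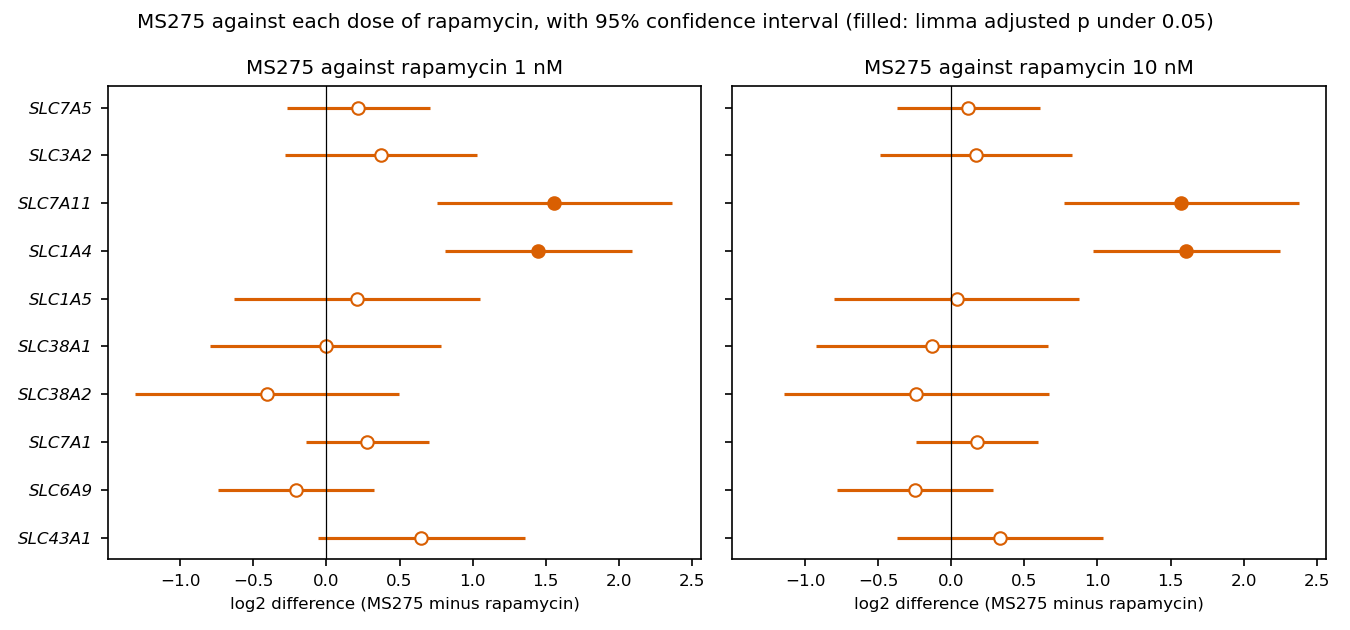
Log2 difference, MS275 minus rapamycin (horizontal axis), for each member at 1 nM (left) and 10 nM (right); points are limma estimates, bars are 95% confidence intervals and filled points have an adjusted p under 0.05. SLC1A4 (1.45 and 1.61) and SLC7A11 (1.56 and 1.57) are filled in both panels, and the intervals of the other 8 genes cross 0. The comparison was listed after its values were seen.

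The members had 25 probe sets in all, of which 15, in 5 members, were not the representative. In a fit over all probe sets, 2 of the 25 fell with MS275, 5 with 1 nM rapamycin, 6 with 10 nM rapamycin, and 11 in each combination. The share of all 54613 probe sets that fell is not given here, so these counts have no background. The sign of the change was negative for 24, 23, 24, 24 and 24 of the 25 in that order. These sign counts have no background either, and probe sets of the same gene are not separate results. All 5 probe sets of SLC1A4 lay between -1.70 and -0.99 with 1 nM rapamycin and between -1.75 and -1.01 with 10 nM, and between -0.35 and 0.27 with MS275. All 5 were higher with MS275 than with rapamycin, by 0.64 to 1.60 against 1 nM.

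The probe sets of SLC7A11 differed more from each other. The dimmest of the 3 had its lowest mean in the 10 nM combination (4.32), against 4.34 and 4.41 with 1 and 10 nM rapamycin. With MS275 the representative changed by -0.92, and the other probe sets by -1.21 and -1.36 (limma adjusted p = 0.0685 and 0.0951). The mean of its 3 probe sets passed with MS275 (-1.16, adjusted p = 0.0197). Against 1 nM rapamycin the MS275 difference was 1.56 in the representative and 0.61 in both others, and against 10 nM it was 1.57 against 0.52 and 0.54. For SLC38A2, the probe sets not used as representative changed by -0.79 to -0.28 over the 5 treatments without passing. For SLC38A1, 1 other probe set fell in the 10 nM combination (-1.76 ± 0.41, limma adjusted p = 0.0397), where the representative did not pass. Another had changes of the other sign from the representative with rapamycin (0.35 and 0.19), with an SE of 0.88. Of the 25 member calls reported here, 6 missed the threshold in the fit over all probe sets. They were SLC3A2 with 1 and 10 nM rapamycin (adjusted p = 0.0527 and 0.0563), SLC1A4 with 10 nM rapamycin (0.0513), SLC7A1 in the 10 nM combination (0.0538) and SLC7A11 for MS275 against 1 and 10 nM rapamycin (0.0715 and 0.0681).

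**Figure D4:**
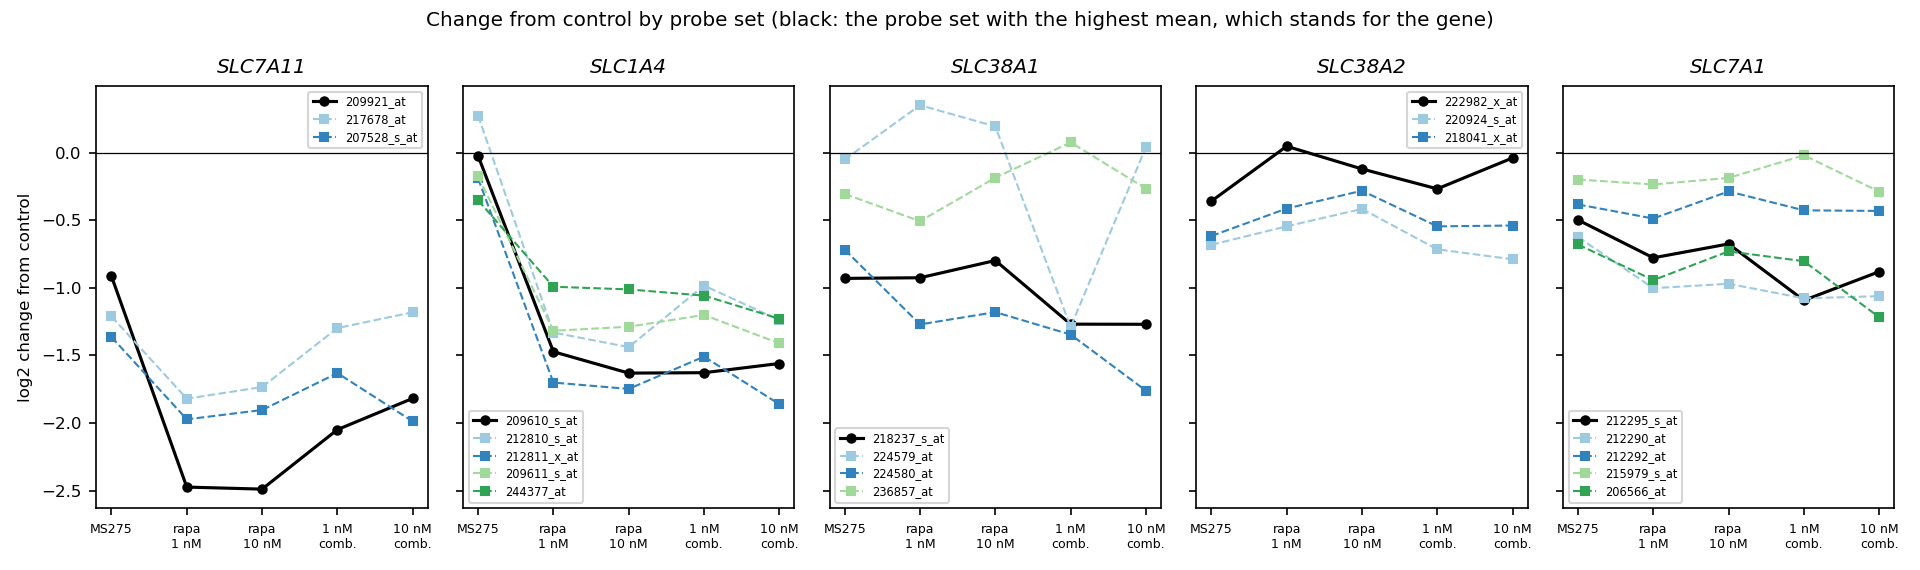
Log2 change from control (vertical axis) in the 5 treatments (horizontal axis) for every probe set of the 5 members that have several, 1 panel per gene; black marks the representative. Points are limma estimates without error bars; the 5 SLC1A4 lines stay together, from between -0.35 and 0.27 with MS275 to between -1.70 and -0.99 with 1 nM rapamycin, while the SLC7A11 representative starts above its other probe sets with MS275 (-0.92) and lies below them with rapamycin alone.

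Combination arrays were next set against each single drug, which asks what the second drug added. No member's representative passed in any of these 4 comparisons with limma. At an unadjusted p under 0.05, 4 members were lower in the 1 nM combination than with MS275 and 4 in the 10 nM combination, and 1 and 2 members were lower than with rapamycin alone. In the same order, 878, 890, 2454 and 1452 of the 19775 genes had such a p in either direction. Of all genes, 0.106% and 0.253% passed in either direction against MS275, and 1.23% and 0.435% against rapamycin. SLC7A5 differed from MS275 by log2 changes of -0.99 ± 0.23 in the 1 nM combination and, at 10 nM, -1.06 ± 0.26 (limma adjusted p = 0.201 and 0.149). Against rapamycin of the same dose its changes were -0.78 ± 0.23 and -0.94 ± 0.26 (limma adjusted p = 0.151 and 0.162). In each of these 4 comparisons its combination arrays all lay below those of the single drug. So did those of 688 and 2332 of the 19775 genes against MS275, at 1 and 10 nM. Against rapamycin the numbers were 1344 and 2187.

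SLC1A4 differed from MS275 by -1.60 ± 0.30 in the 1 nM combination and by -1.54 ± 0.33 in the 10 nM combination (limma adjusted p = 0.0766 and 0.0940), with no overlap between arrays. The arrays of 688 and 2332 of the 19775 genes lay below MS275 in the same way. With the replicate number as a block the 1 nM difference of SLC1A4 passed (limma adjusted p = 0.00474). Against MS275, 2 of the 5 SLC1A4 probe sets fell in the 10 nM combination in the fit over all probe sets (-1.67 and -1.24, adjusted p = 0.0302 and 0.0427), and so did the mean of the 5 (-1.37, adjusted p = 0.0314). Against rapamycin its differences were only -0.15 and 0.07. SLC7A11 and SLC43A1 were the members whose means stood above rapamycin alone in both combinations, SLC7A11 by 0.43 ± 0.38 and 0.67 ± 0.42 (adjusted p = 0.606 and 0.997) and SLC43A1 by 0.37 ± 0.33 and 0.14 ± 0.37 (0.607 and 1.0). For SLC7A11 the 10 nM combination arrays, at 6.26 and 7.22, both lay above the 10 nM rapamycin arrays, the lower of them only just. So did those of 1938 of the 19775 genes.

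Neither dose comparison gave a member past the threshold. Between 10 nM and 1 nM rapamycin the member differences ran from -0.17 to 0.32, and between the 10 nM and the 1 nM combination from -0.44 to 0.23. No member had an unadjusted limma p under 0.05 in either, and 0% of all genes passed in both. For SLC7A5 the 95% confidence interval of the dose difference was -0.39 to 0.59 without MS275 and -0.61 to 0.48 with it.

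The change with both drugs was also set against the sum of the changes with each drug alone, on the log2 scale. For SLC7A5 the 1 nM combination gave -2.69, against a sum of -3.61, and the 10 nM combination gave -2.76, against -3.51. For SLC7A11 the values were -2.05 against -3.39 at 1 nM and -1.82 against -3.40 at 10 nM. SLC1A4 gave -1.63 against -1.5 and -1.56 against -1.66. The difference, or interaction, was positive in 9 of 10 members at 1 nM and in 10 of 10 at 10 nM, with medians of 0.75 and 0.62 beside 0.16 and 0.02 over all genes. With limma 0 members and 0% of all genes passed at either dose, and 4 and 2 members had an unadjusted p under 0.05. Of the 19775 genes, 916 at 1 nM and 194 at 10 nM had such a p in either direction. The SLC7A11 interaction was 1.34 at 1 nM (95% confidence interval 0.20 to 2.48) and 1.59 at 10 nM (0.38 to 2.80). Control and MS275 arrays enter both interactions, control with a plus sign, and all members share these arrays. Since the members were chosen with earlier results of these data known, the sign counts are not an independent test. The share of all genes with a positive interaction is not given here.

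**Figure D5:**
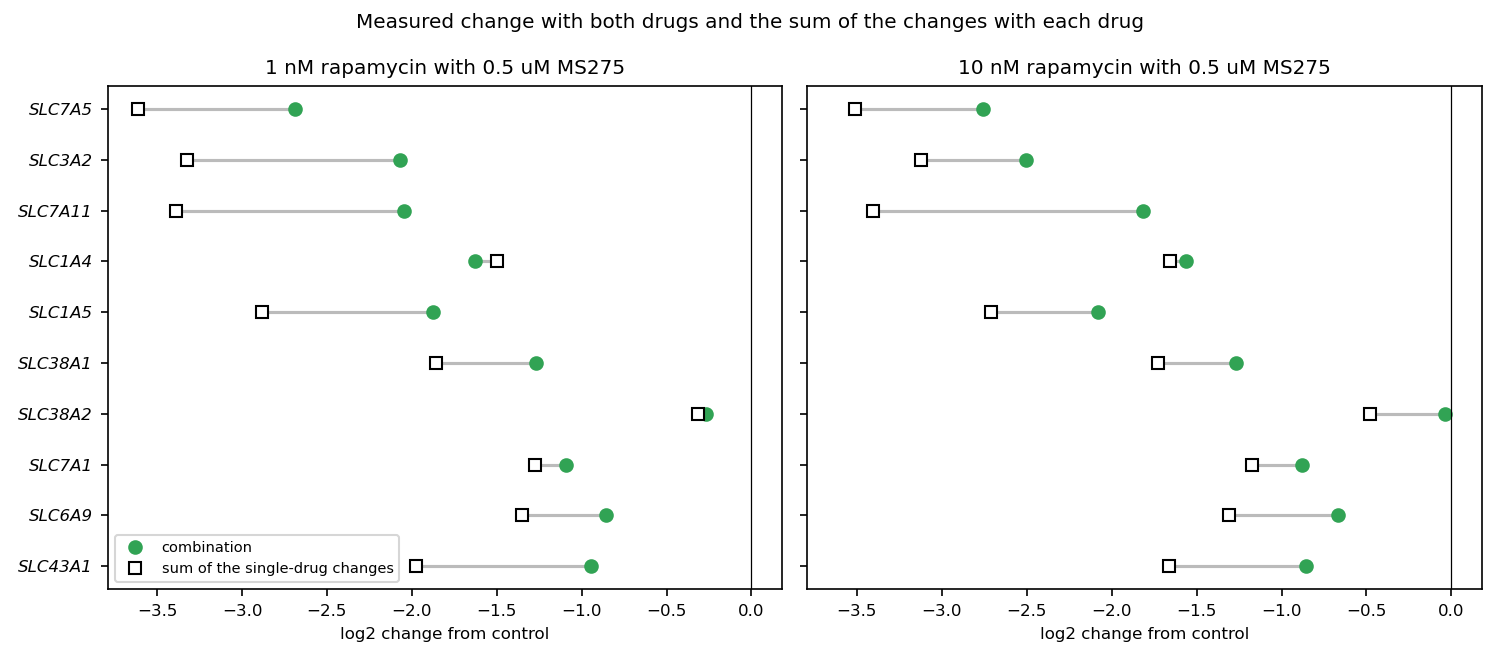
Log2 change from control (horizontal axis) measured with both drugs (filled circles) and the sum of the changes with each drug alone (open squares), for each member at 1 nM (left) and 10 nM rapamycin (right). Points are limma estimates without error bars; circles lie right of squares except for SLC1A4 at 1 nM (-1.63 against -1.5), and the gap of SLC7A11 is 1.34 at 1 nM and 1.59 at 10 nM.

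Ordered by mean level, control cells stood highest for 9 of the 10 members and second to 1 nM rapamycin for SLC38A2. For SLC7A5, SLC3A2 and SLC1A5 the order from low to high was the 10 nM combination, the 1 nM combination, 1 nM rapamycin, 10 nM rapamycin, MS275 and control. For SLC7A11 both rapamycin doses were lowest, then the combinations, then MS275 and control. Only 3 neighbours in these orders differed past the threshold. They were MS275 and control for SLC7A5, MS275 and control for SLC3A2, and MS275 and 1 nM rapamycin for SLC1A4.

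Over the 17 arrays, SLC3A2 had the second highest Pearson correlation with SLC7A5 of all genes (r = 0.95), behind DNAJB12 (0.96) and beside FDPS (0.95), AGTRAP (0.94) and SLCO4A1 (0.93). DNAJB12 encodes a chaperone of the endoplasmic reticulum and FDPS a sterol synthesis enzyme. The genes most like SLC7A11 were INHBE (0.95), NINJ1 (0.93), CHAC1 (0.92), PHGDH (0.92) and ERMP1 (0.89). CHAC1 degrades glutathione and PHGDH starts serine synthesis. Among the members, r with SLC7A5 was 0.87 for SLC1A5 and SLC7A1, 0.72 for SLC7A11, 0.68 for SLC1A4 and 0.0016 for SLC38A2. These describe arrays that share treatments and replicate spread, and no test was made.

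Other genes of amino acid supply were counted in the same way, from lists also chosen with earlier results of these data known. Of all genes, 0.455%, 0.0809% and 0.369% fell with MS275, 1 nM and 10 nM rapamycin, and 1.58% and 2.24% in the 1 nM and 10 nM combinations. At these shares a short list can hold 0 or 1 such gene, so no contrast with the members is drawn. Of 28 measured surface amino acid transporters outside the members, 0 passed with MS275 or either rapamycin dose and 1 fell in each combination. It was SLC38A5, a glutamine and histidine transporter, with 8.34, 8.26 and 7.72 in the 1 nM combination and 8.32 and 7.71 in the 10 nM combination, against 9.92, 10.70 and 10.20 in control cells. Its changes were -2.17 ± 0.28 at 1 nM and -2.25 ± 0.31 at 10 nM (limma adjusted p = 0.000826 and 0.00111), and its changes with MS275, 1 nM and 10 nM rapamycin were -1.18, -1.01 and -0.75. The median change of the 28 was -0.09, -0.25, -0.23, 0.04 and -0.21 in the 5 comparisons. None of 9 lysosomal amino acid transporters, 27 genes of amino acid sensing upstream of mTORC1 or 11 transcription factors known for these transporters passed in any comparison with control.

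Of 14 measured enzymes that make or use the carried amino acids, 4 fell in the 1 nM combination, 5 in the 10 nM combination and 0 under each single drug. The difference between these counts was not tested. Of all genes, 1.58% and 2.24% fell in the 1 nM and 10 nM combinations and 0.0809% to 0.455% under the single drugs. PSAT1, of serine synthesis, fell by 2.14 ± 0.47 in the 1 nM combination (limma adjusted p = 0.0223). Its arrays there were at 5.95, 7.48 and 7.99, the lowest on the narrow replicate 1, against 8.48, 9.59 and 9.78 in control cells. Its changes with MS275, 1 nM and 10 nM rapamycin and the 10 nM combination, of -0.53, -0.95, -1.46 and -1.37, did not pass. SHMT2, the mitochondrial serine hydroxymethyltransferase, fell in both combinations, with changes of -1.27 ± 0.29 at 1 nM and -1.34 ± 0.32 at 10 nM (limma adjusted p = 0.0255 and 0.0331). GOT1, an aspartate aminotransferase, fell in the same groups with changes of -1.04 ± 0.24 and -1.20 ± 0.27 (0.0302 and 0.0256). ALDH18A1, of proline synthesis, fell by 1.46 ± 0.28 in the 10 nM combination (0.0112). Of 10 genes of cystine use and glutathione, 1 fell with MS275 (CBS, the first enzyme of transsulphuration, by 1.52 ± 0.35, adjusted p = 0.0439), 0 with either rapamycin dose, 1 under the 1 nM and 2 under the 10 nM combination. GSS, glutathione synthetase, fell in both combinations, with changes of -1.12 ± 0.27 at 1 nM and -1.61 ± 0.31 at 10 nM (0.0423 and 0.00947), and CBS fell by 1.59 ± 0.39 in the 10 nM combination (0.0376).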

How the data were processed

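The authors deposited log2 signals per probe set, made with affy and RMA per the submitters' processing notes, which name no version. Of 54613 probe sets, 41091 have 1 gene symbol, 1801 several and 11721 none in the platform annotation, and 41037 matched RefSeq (GRCh38.p14) by Entrez ID, used for names. These gave 19775 genes. Group means were fitted in R 4.3.3 with limma 3.58.1 (lmFit, eBayes, defaults) over all 17 arrays and adjusted by Benjamini-Hochberg over all genes; the code was tested on simulated data. MS275 against rapamycin was listed as a separate comparison after its values were seen. Members and lists were chosen with earlier results of these data known. Named beside the members were up to 4 genes per list past the threshold with the smallest adjusted p, and the 5 genes most correlated with SLC7A5 and with SLC7A11. Replicate numbers recur between groups without a label saying why. In 7 of 10 pairs of groups with 3 shared numbers, the departures from the group mean of arrays with the same number correlated over 0.1 in every case (0.286 to 0.853 over genes): between control, MS275, 1 nM rapamycin and the 1 nM combination, and between both rapamycin doses. This pairing rests on the values alone; for those groups the block is printed where it changed a call. No protein sequences were used here. The number of arrays limits the precision.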

Additional observations from a re-analysis of the deposited data

How the results depend on the processing

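No called change turned its sign under any alternative. Of 25 member calls, 8 held with every array left out in turn, and 2 (SLC1A4, MS275 against either rapamycin dose) held in all 9 other alternatives. With array weights, the members past the threshold numbered 4 with MS275, 9 with 1 nM rapamycin and 8 with 10 nM rapamycin against control, where 3.7%, 9.52% and 6.84% of all genes passed as lower, and 1 for the 1 nM combination against 1 nM rapamycin (4.66% of all genes in either direction). With the replicate block they numbered 5 with 1 nM rapamycin against control (0.455% of all genes lower) and 1 for each combination against MS275 (SLC1A4, adjusted p = 0.00474 and 0.00528, beside 0.223% and 0.506% of all genes). Among groups the replicate numbers do not pair, the block also made SLC1A5 pass at 10 nM rapamycin (adjusted p = 0.0380) and SLC38A1 in the 10 nM combination (0.0327), and it ended no call. Fits to only the arrays of the groups compared, which hold fewer samples, left 0 members in each of the 5 comparisons with control, where 0% of all genes passed as lower, and 1 each for MS275 against 1 nM and 10 nM rapamycin (1.67% and 1.2% of all genes higher). Quantile normalization left 1 with MS275 against control (0.571% of all genes lower) and 1 with MS275 against 1 nM rapamycin (1.56% higher), and trended robust variances left 2 with 10 nM rapamycin (0.157% lower). Median centring moved the all-gene median by up to 0.14. It gave 1 for the 1 nM combination against 1 nM rapamycin (SLC7A5, limma adjusted p = 0.0465, beside 1.14% of all genes in either direction). It also gave 1 each for MS275 against 1 nM and 10 nM rapamycin (1.6% and 1.69% of all genes higher). Using the mean of probe sets gave 1 for the 10 nM combination against MS275 (0.182% of all genes in either direction) and 1 for MS275 against 10 nM rapamycin (1.86% higher). Leaving out both narrow arrays gave 1 for MS275 against 1 nM rapamycin (2.91% higher). The causes of these moves were not tested. With each array left out, members past the threshold against control numbered 1 to 2 with MS275, 0 to 3 with 1 nM rapamycin, 0 to 4 with 10 nM rapamycin and 5 to 7 in the 1 nM combination. They numbered 0 to 2 for MS275 against either rapamycin dose and 0 to 0 in the other 8 comparisons. Over the same left-out arrays, 0.091% to 0.789% of all genes passed as lower with MS275 and 0% to 0.233% with 1 nM rapamycin. The shares were 0.0101% to 0.415% with 10 nM rapamycin and 0.9% to 2.52% in the 1 nM combination. As higher with MS275, 0.845% to 2.27% passed against 1 nM rapamycin and 0.733% to 2.27% against 10 nM. For the 10 nM combination against control no count or share is given, since leaving out either of its arrays leaves 1. In the fit over all probe sets 6 of the 25 member calls missed the threshold. The filter on dim probe sets left out SLC6A9 only. Signal over background is not known, since no detection calls were used.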
